A study of Mus musculus with 6 samples.

Results

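The nuclear genes of the respiratory chain were followed through 6 blood stem and progenitor populations of the mouse. They were taken as every gene whose symbol starts with Ndufa, Ndufb, Ndufc, Ndufs or Ndufv, with Cox4 to Cox8, with Uqcr or with Atp5, together with Cycs, Cyc1 and Sdha to Sdhd. This rule, which uses names and no measured value, gave 94 of the 23538 genes in the tables. They fall into 36 genes of complex I, 7 Ndufaf assembly factors, 4 genes of complex II, 9 of complex III, cytochrome c, 20 of complex IV (Ndufa4 and Ndufa4l2 counted there), 15 of complex V, and Atp5s with Atp5sl.

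The study sorted 15 bone marrow cells per library and measured their mRNA with CEL-Seq2, in which barcoded 3′ ends are read and counted. Wild-type mice were compared with mice labelled Mof -/+, in which 1 copy of Mof (gene symbol Kat8, a histone H4 lysine acetyltransferase) is lacking; what was removed from the allele is not given in the sources used here. Each genotype gave 3 libraries of each of 6 populations, 36 libraries in all. The haematopoietic stem cells (HSC) were LSK cells, that is lineage-negative, Sca-1-positive and cKit-positive, that were also CD34-, Flt3-, CD48- and CD150+. The multipotent progenitors were CD34+ CD48+ LSK cells: MPP2 were Flt3- CD150+, MPP3 were Flt3- CD150-, and MPP4 were Flt3+ CD150-. The committed progenitors lacked Sca-1 and IL7r and carried cKit: common myeloid progenitors (CMP) were CD34+ with low CD16/32, and megakaryocyte-erythroid progenitors (MEP) were CD34- and CD16/32-. Both genotypes were gated alike. No age, sex or strain was given, and nothing in the labels ties a library to an animal, so each p-value reflects library-to-library spread, which may be technical.

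The respiratory chain sits in the inner mitochondrial membrane. Complexes I and II take electrons from NADH and succinate, complex III passes them through cytochrome c to complex IV, which reduces oxygen, and complex V uses the resulting proton gradient to make ATP. Most subunits are nuclear genes that are transcribed broadly, with a smaller set encoded in mitochondrial DNA, which is not analysed here. Blood stem cells are known for relying less on respiration than the progenitors they give rise to.

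All 94 genes were matched to RefSeq (GRCm38.p6), and 77 had a promoter window of 300 bases, from 250 before to 50 after the listed transcription start. Both strands were searched for the core letters bound by nuclear respiratory factor 1, GCGCANGCG or CGCNTGCGC. With 1 window per gene, the first listed, they stood in 22 of the 77 windows (28.6%) and in 1749 of the 27025 windows of all genes (6.47%). The core of the ETS family, CCGGAAG or CTTCCGG, stood in 16 (20.8%) against 2465 (9.12%). The CCAAT box (CCAAT or ATTGG) stood in 35 (45.5%) against 10248 (37.9%), and TATAAA or TTTATA in 7 (9.09%) against 3827 (14.2%). No overlap between these motifs was required or barred. Below are windows of the 2 genes called higher in CMP and MEP than in HSC, and of a pair of alternative complex IV subunits whose proportion differed between populations, each 5′ to 3′ on the gene's strand, with letters of the first 2 motifs in capitals. Uqcr11 (chr10:80406772-80407071, minus strand) holds 1 NRF1 and 1 ETS core, Cox6b1 (chr7:30626065-30626364, minus strand) 1 ETS core, and Ndufv3 (chr17:31519865-31520164, plus strand) and Cox6b2 (chr7:4753045-4753344, minus strand) neither. A match describes the letters and not a bound site.
Uqcr11: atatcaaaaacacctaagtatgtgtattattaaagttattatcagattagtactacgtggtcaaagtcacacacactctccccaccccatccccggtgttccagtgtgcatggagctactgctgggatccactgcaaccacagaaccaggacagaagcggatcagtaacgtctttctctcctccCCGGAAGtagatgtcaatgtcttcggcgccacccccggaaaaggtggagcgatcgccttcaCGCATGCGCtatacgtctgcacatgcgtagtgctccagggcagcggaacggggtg
Ndufv3: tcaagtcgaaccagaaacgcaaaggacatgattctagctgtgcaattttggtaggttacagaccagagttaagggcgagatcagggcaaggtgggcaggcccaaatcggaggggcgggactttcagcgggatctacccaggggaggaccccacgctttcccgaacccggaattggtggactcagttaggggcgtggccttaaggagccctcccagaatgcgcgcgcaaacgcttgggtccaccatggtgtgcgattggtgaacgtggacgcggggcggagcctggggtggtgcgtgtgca
Cox6b1: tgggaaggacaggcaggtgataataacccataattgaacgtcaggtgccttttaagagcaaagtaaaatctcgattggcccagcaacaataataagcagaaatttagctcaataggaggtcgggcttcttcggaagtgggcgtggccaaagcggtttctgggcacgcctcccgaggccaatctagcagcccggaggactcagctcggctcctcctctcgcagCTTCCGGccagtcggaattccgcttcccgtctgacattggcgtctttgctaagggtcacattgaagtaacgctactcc
Cox6b2: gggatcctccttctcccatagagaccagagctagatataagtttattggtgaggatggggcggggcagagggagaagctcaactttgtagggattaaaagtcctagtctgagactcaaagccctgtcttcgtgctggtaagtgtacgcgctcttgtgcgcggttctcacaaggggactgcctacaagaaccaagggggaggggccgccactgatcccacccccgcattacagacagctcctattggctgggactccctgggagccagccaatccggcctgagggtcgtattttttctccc

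The libraries held 1577 to 123765 counts (median 41227), so 1 count was worth 8.08 to 634 CPM (counts scaled to a library total of 1000000). The 6 libraries called shallow here had at most 12339 counts: all 3 of wild-type MPP2, wild-type MPP3 replicates 1 and 2, and Mof -/+ HSC replicate 2, which had 1577. Further libraries went against their label in part: wild-type HSC replicate 3 had its HSC markers at 0 and 5921 CPM of B cell genes, and globin and neutrophil genes took 18.4% of wild-type MPP4 replicate 3 and 10.96% of Mof -/+ MPP4 replicate 3. In wild-type MPP3 replicate 3, wild-type MEP replicates 2 and 3 and Mof -/+ MEP replicate 3, neutrophil genes took over 1%. Together these 13 libraries were set aside in an alternative. Results with and without them are given for the summed level of the genes and for the pooled ratios of CMP and MEP to HSC. The single-gene tests were not run without all 13. The sums of single complexes and the shares of alternative genes are not given without all 13 either. The study lists 6 samples, called pools here, and the labels do not say whether the libraries of a pool were prepared or sequenced together. Wild-type and Mof -/+ libraries of each population belong to separate pools, so genotype and any difference between pools cannot be told apart. HSC were also in other pools than the multipotent and the committed progenitors. CMP and MEP shared a pool within each genotype, as did MPP2, MPP3 and MPP4. In pooled cells, fewer cells of a type and less RNA per cell cannot be told apart. Kat8 itself had 0 to 26.2 CPM as a group mean and too few counts to check the genotype, 20.4 CPM in wild-type and 6.43 CPM in Mof -/+ HSC.

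Of the 94 genes, 88 had at least 1 count and 82 passed the filter on low values that all tests used, a mean of at least 1 count at the median depth. The 6 with 0 counts were Cox4i2, Cox7b2, Cox8b, Cox8c, Ndufa4l2 and Ndufs5. The 6 with counts that were not tested were Atp5s, Cox6b2, Cox7a1, Ndufaf1, Ndufaf3 and Ndufaf5. A count of 0 over all libraries allows up to 1.69 CPM (3 counts; counting error only). Together the 94 genes took 25851 of 1771518 counts, with a median of 216 per gene and a maximum of 1152 for Atp5b, the catalytic beta subunit of complex V.

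Summed over the 94 genes, transcripts were most abundant in the committed progenitors and, over both genotypes, least in MPP3. In wild type, the sum was 11139, 11939 and 14459 CPM in the HSC libraries, 14128, 15249 and 14787 in CMP, and 15076, 14344 and 18813 in MEP. The Mof -/+ libraries had 13649, 4439 and 12531 CPM in HSC, 15041, 15934 and 16830 in CMP, and 17631, 18999 and 15103 in MEP. Every CMP and MEP library lay above 5 of the 6 HSC libraries, and wild-type HSC replicate 3 lay above wild-type CMP replicate 1 and wild-type MEP replicate 2. The mean was 11360 ± 3592 CPM in HSC (SD, n = 6) and 15995 ± 1682 CPM in CMP and MEP (SD, n = 12), a ratio of 1.41. Without Mof -/+ HSC replicate 2, whose sum rests on 7 counts, the HSC mean was 12744 ± 1325 CPM (SD, n = 5) and the ratio 1.26. Without all 13 libraries the ratio was 1.30, with 9 CMP and MEP libraries at 14128 to 18999 CPM and 4 HSC libraries at 11139 to 13649 CPM. The ratio within a genotype was then 1.28 in wild type and 1.29 in Mof -/+. These libraries do not overlap, but the 13 were chosen after the values were seen. They include wild-type HSC replicate 3, the only HSC library that overlapped, so the separation follows from the choice. Marker genes of mature neutrophils also differed between these populations: their sum ranged from 458 to 3171 CPM in HSC, from 595 to 7129 in CMP and from 570 to 33890 in MEP, and 2 of 12 tested, Lcn2 and S100a8, were called higher. Late erythroid genes, which include the globins, went the other way: 7220 to 35676 CPM in wild-type HSC and 0 to 1902 in Mof -/+ HSC, against 0 to 376 in CMP and MEP, and 2 of 5 tested were called lower. Wild-type HSC replicates 1 and 2, with 7220 and 35676 CPM of them, remain in the set without the 13 libraries, while Mof -/+ HSC replicates 1 and 3 are at 0. With globin and neutrophil genes kept out of the totals the ratio was 1.21 in wild type and 1.40 over both genotypes. Mature B cell genes ranged from 0 to 5921 CPM in HSC, 0 to 71.8 in CMP and 12.96 to 5058 in MEP. The 3 highest of these libraries in neutrophil genes and the 2 highest in B cell genes are among the 13 left out above.

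Among the multipotent progenitors, MPP4 stood above MPP2 and MPP3. The sum was 11035, 13453 and 10801 CPM in wild-type MPP2, 9721, 8683 and 10413 in MPP3, and 15511, 15416 and 7151 in MPP4. In Mof -/+ it was 12683, 12746 and 11025 CPM in MPP2, 11063, 11071 and 11219 in MPP3, and 15320, 14770 and 14024 in MPP4. All 3 Mof -/+ MPP4 libraries lay above all 6 Mof -/+ MPP2 and MPP3 libraries, and so did 2 of 3 in wild type. The ratio of MPP4 to MPP2 and MPP3 was 1.19 in wild type and 1.26 in Mof -/+. Wild-type MPP4 replicate 3, the lowest of that group, is the library with the most globin and neutrophil transcripts, and its sum was 8765 CPM when those genes were kept out of the total; their further part in its low value was not tested. Without the 13 libraries no wild-type MPP2 or MPP3 library remains, so a ratio can be given for Mof -/+ only. It was 1.29 (2 libraries against 6). Mature B cell genes were also higher in Mof -/+ MPP4, at 2411 to 4828 CPM, than in Mof -/+ MPP2 (796 to 1334) and MPP3 (87.6 to 1276), while wild-type MPP4 (1567 to 5266) and MPP2 (3001 to 6817) overlap; their part in the difference was not tested.

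**Figure D1:**
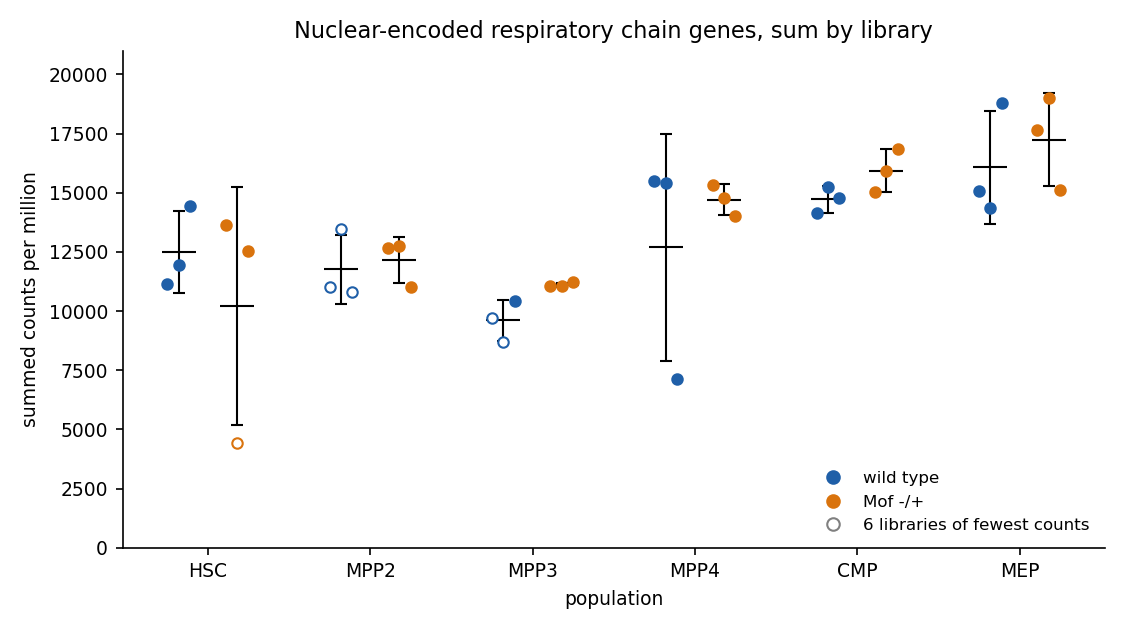
Summed level of the 94 respiratory chain genes (y axis, CPM) in each of the 36 libraries, by population (x axis) and genotype (colour); long bars are group means, whiskers 1 SD (n = 3), and open points the 6 shallow libraries. CMP and MEP libraries sit between 14128 and 18999, and the single lowest point is Mof -/+ HSC replicate 2 at 4439.

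The mean sums of the single complexes were lower in HSC than in CMP and MEP, except complex II in wild type, where CMP (396 ± 75.4 CPM) lay below HSC (424 ± 86.2; SD, n = 3). For complex I, the NADH dehydrogenase, the wild-type means were 3319 ± 406 CPM in HSC, 4230 ± 305 in CMP and 4324 ± 811 in MEP (SD, n = 3 each). For complex III, the wild-type means were 1109 ± 216 CPM in HSC, 1345 ± 64.0 in CMP and 1614 ± 143 in MEP. For complex V, the ATP synthase, they were 3953 ± 679, 4735 ± 289 and 5119 ± 834 CPM in the same order. Between HSC and MEP, complexes I, III and V each differed by more than the SD of either group, and the libraries overlap in complex V but not in complexes I and III. In complex I the nearest libraries, wild-type HSC replicate 3 and wild-type MEP replicate 2, were at 3762 and 3772 CPM. That gap is smaller than 1 count, which is worth 32.7 and 28.6 CPM there. Complex IV, cytochrome c oxidase, was at 3242 ± 509 CPM in wild-type HSC, 3327 ± 239 in CMP and 3908 ± 462 in MEP. Over both genotypes and without Mof -/+ HSC replicate 2, the ratio of CMP and MEP to HSC was 1.25 for complex I, 1.26 for complex II, 1.38 for complex III, 1.17 for complex IV, 1.27 for complex V and 1.64 for cytochrome c. The last is a single gene, and its libraries overlap widely.

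**Figure D2:**
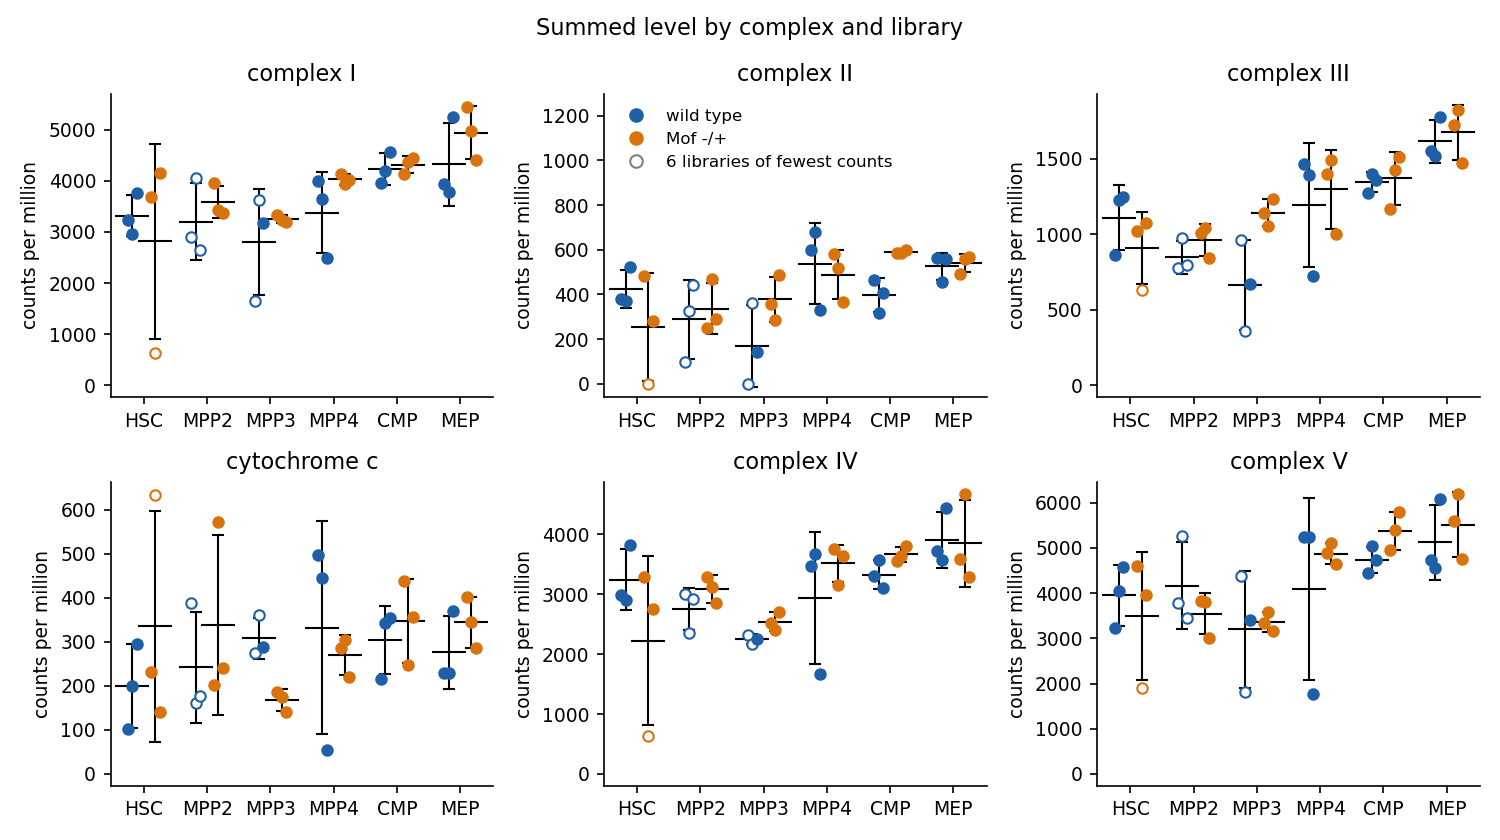
Summed level of each complex and of cytochrome c (y axes, CPM, not on a common scale) by population and genotype; bars are means ± 1 SD (n = 3), whiskers are cut where they pass the lower axis limit, and open points are the 6 shallow libraries. CMP and MEP libraries lie to the upper end in complexes I, III and V, and wild-type MPP3 spreads widely in complexes I, II and V.

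Most of the genes shifted in the same direction, by 1.28-fold at the median. From counts pooled over the libraries of a population, 73 of the 82 tested genes (89.0%) had more CPM in CMP and MEP than in HSC. Ratios ran from 0.62 to 3.86 where HSC held a count. Cox6a2, among the 73, had 0 counts in HSC and 1 each in CMP and MEP. Over all genes tested, 50.6% did, with a median ratio of 1.01. In wild type alone it was 63 of 81 genes with a median ratio of 1.30 (1 gene had no count on either side), and in Mof -/+ 67 of 82 with 1.28. Without the 13 libraries it was 70 of 82, median 1.31. By complex, all 15 genes of complex V, 32 of 35 of complex I, 8 of 9 of complex III, 10 of 13 of complex IV and 3 of 4 of complex II were higher, with medians of 1.21, 1.29, 1.51, 1.24 and 1.30. The genes share their libraries and are not replicates, so these counts are a description.

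Single genes were tested with limma on log2(scaled count + 1), where a fold can be understated for low genes and overstated where libraries hold 0 counts. In CMP and MEP against HSC over both genotypes, 2 of the 82 passed (adjusted p under 0.05), both higher, and none lower; over all 6501 genes, 2.17% were called higher. At an unadjusted p under 0.05, 27 of the 82 and 1237 of all genes passed. Of the 82, 79 had a positive log2 difference, with a median of 0.72, against 74.0% and 0.35 over all genes. Without Mof -/+ HSC replicate 2 the median fell to 0.34, against 0.09 over all genes, and 71 of 82 were positive, against 56.9% of all genes. In that setting 1 gene passed, Uqcr11, and the share of all genes called is not given here. Without the 6 shallow libraries 4 genes passed, Uqcr11, Ndufv3, Ndufb4 and Cox6b2, all higher, against 2.71% of all genes called higher. Of these, Cox6b2 had not passed the main filter and now did so mostly through its CMP and MEP counts.

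**Figure D3:**
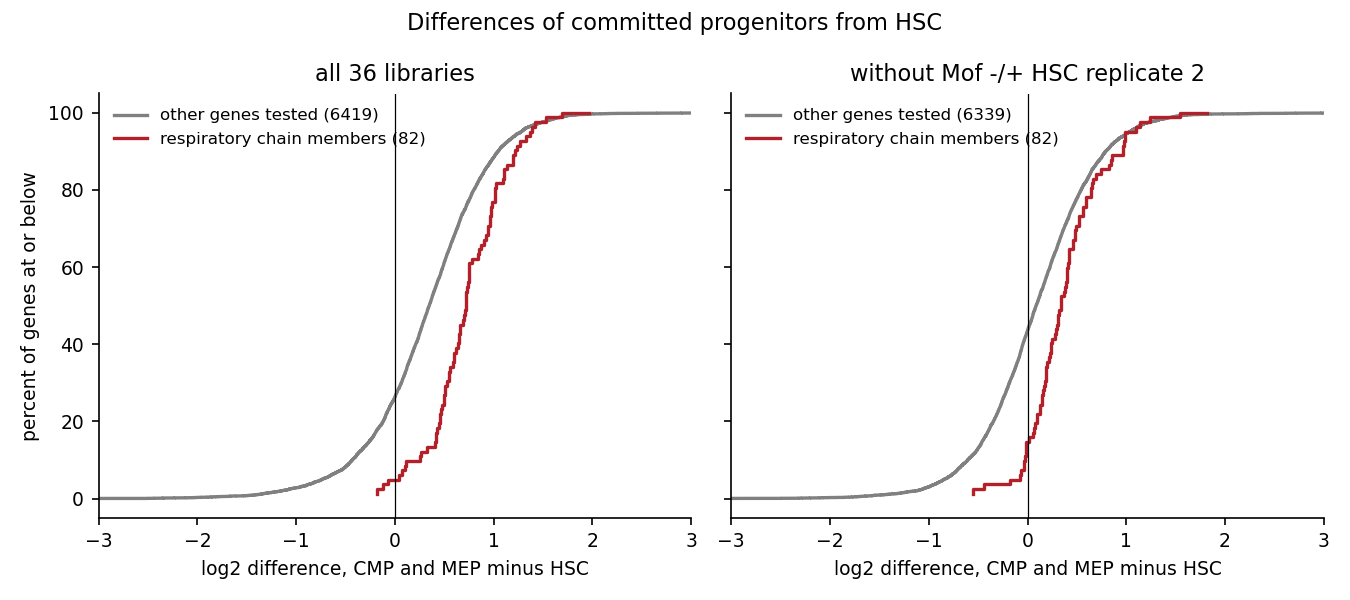
Percent of genes (y axis) at or below each log2 difference of CMP and MEP from HSC (x axis, scale of log2 of scaled count + 1), for respiratory chain genes (red) and the other genes tested (grey), with all 36 libraries and without Mof -/+ HSC replicate 2. The red curve lies to the right of the grey one up to the highest differences in both panels, with medians of 0.72 and 0.34.

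Uqcr11, a small subunit of complex III (chr10:80402997-80406821, minus strand, mm10), rose in CMP and MEP. Its level in HSC was 68.8, 57.0 and 0 CPM in wild type and 57.8, 0 and 0 in Mof -/+. In CMP it was 180, 185 and 91.6 CPM in wild type and 195, 123 and 137 in Mof -/+. In MEP it was 176, 114 and 186 CPM in wild type and 246, 213 and 79.8 in Mof -/+. All 12 CMP and MEP libraries lay above all 6 HSC libraries, and 3 HSC libraries held no count. Among the 3 is Mof -/+ HSC replicate 2, where 1 count is worth 634 CPM, so its 0 cannot be told from the CMP and MEP levels. The log2 difference was 1.97 (SE 0.42, limma adjusted p = 0.0048). Without Mof -/+ HSC replicate 2 it was 1.82 (adjusted p = 0.014), and leaving out any 1 of the 36 libraries kept the Uqcr11 call. It did not enter the edgeR fit or the fit with a mean of at least 5, which left out genes of low counts. The pooled level was 41.3 CPM in HSC (7 counts; exact Poisson 95% interval 16.6 to 85.0), 147 in CMP and 173 in MEP, a pooled ratio of 3.86. In the MPP libraries Uqcr11 lay between, at 91.9 CPM pooled, with 2 of the shallow MPP3 libraries at 0.

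Ndufv3, an accessory subunit of the NADH-binding arm of complex I (chr17:31520115-31531326, plus strand), was called as well. It was at 68.8, 0 and 0 CPM in wild-type HSC and 57.8, 0 and 0 in Mof -/+ HSC, 5 counts in all. In CMP it was at 125.7, 66.0 and 131 CPM in wild type and 64.9, 157 and 105 in Mof -/+. MEP libraries held 70.4, 28.6 and 137 CPM in wild type and 104, 173 and 79.8 in Mof -/+. In all, 1 wild-type MEP library and 2 CMP libraries lay within the range of the HSC libraries. The log2 difference was 1.70 (SE 0.45, limma adjusted p = 0.028), and without Mof -/+ HSC replicate 2 it was 1.55 with an adjusted p of 0.12. Nor was Ndufv3 called without wild-type HSC replicate 2, wild-type HSC replicate 3, wild-type MEP replicate 3 or Mof -/+ HSC replicate 3, nor with DESeq2 (adjusted p = 0.19), voom weights (0.075) or no filter (0.052). The pooled level was 29.5 CPM in HSC (9.57 to 68.8), 110 in CMP and 108 in MEP.

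Atp5g1, 1 of 3 genes that encode the same mature c subunit of the ATP synthase ring, had a difference that passed under some tests. It was at 172, 199 and 196 CPM in wild-type HSC and 231, 0 and 186 in Mof -/+ HSC. In CMP it was at 323, 449 and 471 CPM and, in Mof -/+, 357, 269 and 461. In MEP it was at 476, 257 and 449 CPM and, in Mof -/+, 544, 519 and 547. All 12 CMP and MEP libraries lay above all 6 HSC libraries. The 0 of Mof -/+ HSC replicate 2, where 1 count is worth 634 CPM, cannot be told from the CMP and MEP levels. Limma gave a log2 difference of 1.53 (SE 0.49, adjusted p = 0.073), while edgeR gave 1.10 (adjusted p = 0.012), DESeq2 1.06 (adjusted p = 0.025) and limma with voom weights 0.96 (adjusted p = 0.041). Without Mof -/+ HSC replicate 2, whose Atp5g1 count was 0, limma gave 0.98 (adjusted p = 0.40).

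The genes with the most counts in each complex did not pass. Atp5b was at 601 CPM pooled in HSC (490 to 730), 746 in CMP and 788 in MEP, and Atp5a1, the alpha subunit beside it in the catalytic head, at 531, 634 and 652. Atp5g2, another c subunit gene, was at 360, 500 and 486 CPM. Their limma adjusted p was 0.27, 0.23 and 0.72. In complex IV, Cox8a was at 454 CPM in HSC, 500 in CMP and 599 in MEP. Cox6a1 was at 324, 330 and 484 CPM, and Cox4i1 at 395, 363 and 371. The adjusted p of these 3 was 0.29, 0.17 and 0.50.

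In complex III, Uqcrh (the hinge protein) was at 277 CPM in HSC, 299 in CMP and 293 in MEP, Uqcrq at 142, 209 and 219, and Uqcrc2, a core protein, at 136, 143 and 180. Cyc1, cytochrome c1, had a pooled ratio of 2.24 and a log2 difference of 1.27 (SE 0.45, limma adjusted p = 0.11). In complex II, the succinate dehydrogenase, Sdha was at 165, 162 and 164 CPM, Sdhd at 88.4, 99.5 and 134, and Sdhb at 76.6, 122 and 138. The accessory complex I subunits with the most counts were Ndufa6 (183, 205 and 251 CPM), Ndufc2 (177, 176 and 253) and Ndufb11 (177, 207 and 228). Cycs, cytochrome c, was at 206, 328 and 325 CPM, with a log2 difference of 0.41 (SE 0.43, limma adjusted p = 0.62). None of the genes in this paragraph passed the test between HSC and the committed progenitors.

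A few genes ran the other way. The lowest pooled ratios of CMP and MEP to HSC were 0.62 for Ndufa5, 0.69 for Atp5sl and 0.70 for Cox7a2l, a protein that links complexes III and IV into supercomplexes. For Ndufa5 the pooled ratio of MEP to CMP was 3.11, so its low value rests mostly on CMP. Cox7a2l was at 653, 370 and 458 CPM in wild-type HSC and 251, 0 and 512 in Mof -/+ HSC, against 229, 257 and 283 and 143, 293 and 239 in MEP. CMP, which is not listed by library here, was higher than MEP (pooled ratio of MEP to CMP 0.73). Mof -/+ HSC replicates 1 and 2 lay within or below the MEP range, and the other 4 HSC libraries above it. The log2 difference from CMP and MEP together was 0.11 (SE 0.45, limma adjusted p = 0.92), of opposite sign to the pooled ratio; on the log scale each library weighs alike, the one at 0 included.

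Within one genotype the tests found less. In wild type none of the 82 passed for CMP and MEP against HSC (0.185% of all genes called; 6 members and 452 of all genes at unadjusted p under 0.05). In Mof -/+, 1 passed, Uqcr11 (log2 difference 2.31, SE 0.59, limma adjusted p = 0.026; 1.22% of all genes called higher), and none did without HSC replicate 2, CMP replicate 1, MEP replicate 1 or MEP replicate 2. For the MPP populations together against HSC, none passed (0.446% of all genes called; 7 members and 666 of all genes at unadjusted p under 0.05), and the median log2 difference was 0.11 against 0.13 over all genes.

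**Figure D4:**
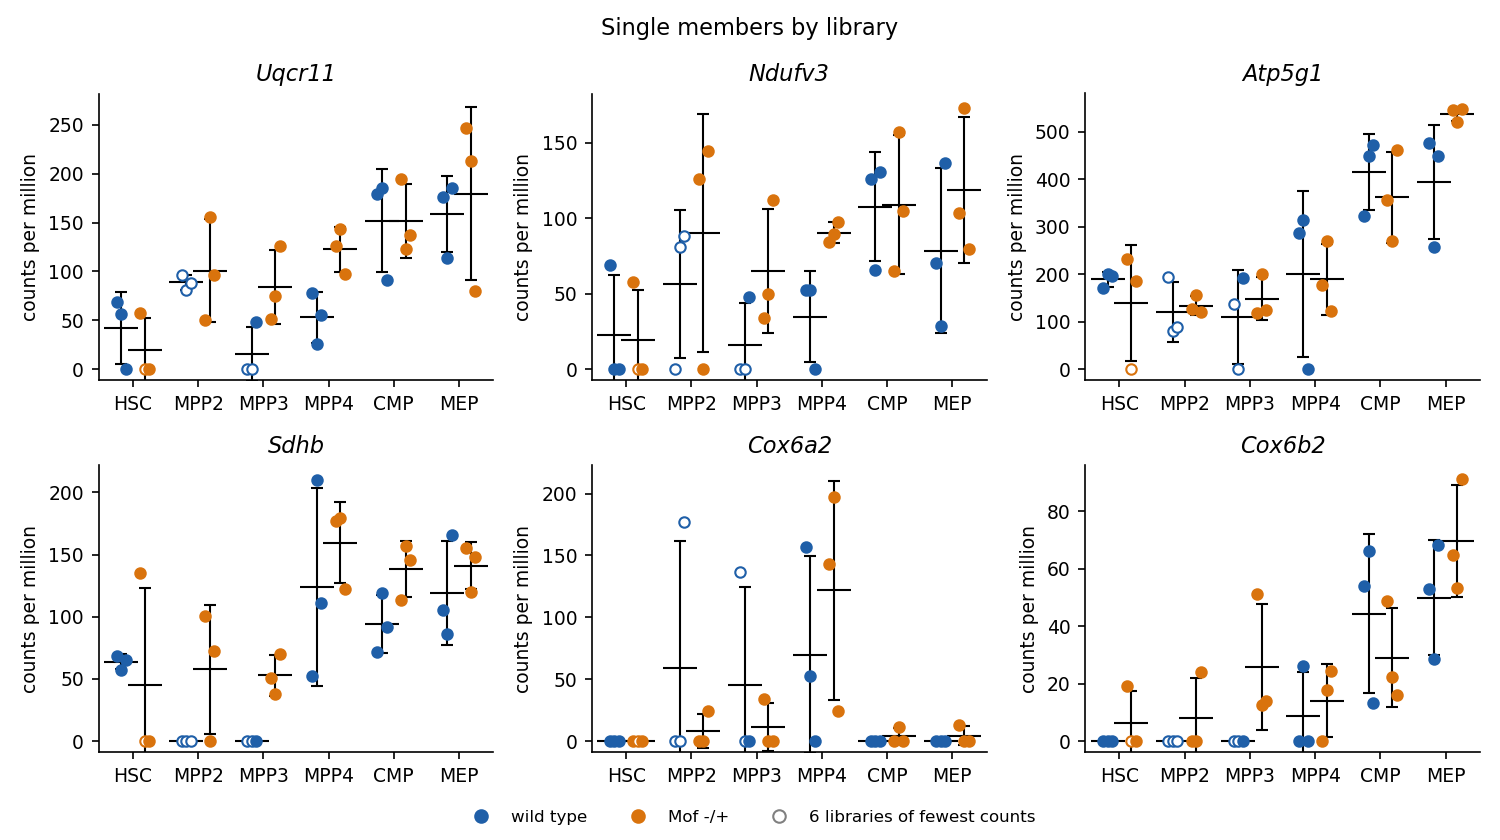
Levels of 6 respiratory chain genes (y axes, CPM, each on its own scale) in each library, by population and genotype; bars are means ± 1 SD (n = 3), whiskers are cut at the lower axis limit, and open points are the 6 shallow libraries. Uqcr11 and Atp5g1 are higher in all 12 CMP and MEP libraries than in the 6 HSC libraries, of which Mof -/+ HSC replicate 2 is too shallow to tell. Sdhb is at 0 in all wild-type MPP2 and MPP3 libraries. The highest Cox6a2 points are MPP4 libraries and the shallow wild-type MPP2 replicate 3 (2 counts) and wild-type MPP3 replicate 1 (1 count).

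Across the 6 wild-type populations an F test called 6 of the 82 genes, against 3.77% of all genes called: Cox7c, Sdhb, Ndufab1, Ndufv2, Uqcrc2 and Ndufs6. The iron-sulphur subunit Sdhb (limma adjusted p = 0.011) was at 68.8, 57.0 and 65.4 CPM in HSC, at 0 in all 6 MPP2 and MPP3 libraries, and at 52.2, 210 and 111 in MPP4. CMP had 71.8, 119 and 91.6 CPM, and MEP had 106, 85.7 and 166. Sdhb was thus counted in every wild-type HSC, MPP4, CMP and MEP library. In Mof -/+, where these populations were read more deeply, it was at 101, 0 and 72.4 CPM in MPP2 and 51.1, 37.5 and 69.9 in MPP3.

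Cox7c, a small subunit of complex IV (adjusted p = 0.0094 by limma), was at 309, 114 and 294 CPM in wild-type HSC and at 0 in all 3 MPP2 libraries. MPP3 libraries had 137, 0 and 48.0 CPM and MPP4 libraries 157, 78.7 and 55.4, below the 233, 79.2 and 157 CPM of CMP and the 159, 171 and 371 of MEP on average. Ndufab1, the mitochondrial acyl carrier protein (adjusted p = 0.012), Uqcrc2 (0.041) and Ndufs6 (0.042) were each at 0 in all 3 wild-type MPP3 libraries, and Ndufv2 (0.015), an iron-sulphur subunit of complex I, at 0 in all but 1 of the 6 MPP2 and MPP3 libraries. Of these libraries 5 are shallow. Without the 6 shallow libraries no wild-type MPP2 library remains and wild-type MPP3 keeps replicate 3 only. The F test then compares fewer populations and cannot check these calls. Across the 6 Mof -/+ populations none of the 82 passed (0.754% of all genes called; 7 members and 544 of all genes at unadjusted p under 0.05).

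Between MPP4 and the pair of MPP2 and MPP3, from pooled counts over both genotypes, 63 of the 82 genes were higher, with a median ratio of 1.21, against 48.6% and 0.99 over all genes. The count was 56 with a median of 1.37 in wild type and 63 with 1.22 in Mof -/+, where all genes had a median of 1.03 and 0.97. Complex V had 13 of 15 genes higher (median 1.44), complex IV 12 of 13 (1.19), complex III 8 of 9 (1.25), complex II 4 of 4 (1.497) and complex I 23 of 35 (1.16). The highest ratios were 7.47 for Cox6a2, 3.23 for Sdhb and 2.64 for Ndufab1, and the lowest was 0.35 for Ndufa5. These 3 populations shared a pool within each genotype, and no separate single-gene test was made between them.

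MEP and CMP, which also shared pools, lay close. The sum ratio of MEP to CMP was 1.09 in wild type and 1.08 in Mof -/+, and from pooled counts 57 of 82 genes were higher in MEP, with a median ratio of 1.11 against 0.99 over all genes. None of the 82 passed (limma; 0.0154% of all genes called). At unadjusted p under 0.05 there was 1, against 96 of all genes: Ndufa5, a peripheral-arm subunit of complex I, with a log2 difference of 1.14 (SE 0.52). Ndufa5 was at 53.9, 52.8 and 13.1 CPM in wild-type CMP and 48.7, 22.4 and 16.2 in Mof -/+ CMP, against 106, 143 and 48.8 and 104, 146 and 79.8 in MEP. Of the 6 MEP libraries 5 lay above all CMP libraries. Cyc1 had a pooled MEP to CMP ratio of 1.75, and Ndufs8 the lowest, 0.48.

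Between genotypes none of the 82 genes passed, averaged over the 6 populations (limma; 0.0769% of all genes called; 7 members and 679 genes at unadjusted p under 0.05). The median log2 difference of Mof -/+ from wild type was 0.20 against 0.13 over all genes. Without Mof -/+ HSC replicate 2, 1 gene passed, Ndufa11, and the share of all genes called in that setting is not given here. Population by population none passed in HSC (0.0154% of all genes called), MPP2 (0.385%), MPP3 (0.492%), MPP4 (0%), CMP (0%) or MEP (0%), nor for the interaction of genotype with population (0.0154%). At an unadjusted p under 0.05, 21 members and 1344 of all genes passed in MPP3, 12 and 961 in MPP2, and 11 and 696 in HSC. For MPP4 these were 3 and 194, for CMP 0 and 25, for MEP 0 and 47, and for the interaction 7 and 627.

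The summed level had Mof -/+ to wild-type ratios of 1.16 in both MPP3 and MPP4, 1.08 and 1.07 in CMP and MEP, 1.03 in MPP2 and 0.82 in HSC. The Mof -/+ MPP3 libraries (11063 to 11219 CPM) lay above the wild-type ones (8683 to 10413), of which 2 are shallow, and in the other 5 populations the genotypes overlap. The direction was not stable in 3 populations. In HSC the ratio was 1.05 without Mof -/+ HSC replicate 2 and 1.13 without the 13 libraries. In MPP2 it was 1.57 with TMM scaling and 0.92 with DESeq2's factors, and in MPP4 it was 0.97 without the 13 libraries. In MPP3 it was 2.23 with TMM and 1.13 with DESeq2's factors. No ratio without the 13 libraries can be given for MPP2 or MPP3, since every wild-type library of both is among them.

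Several subunits exist as alternative genes, and these gave the clearest differences in proportion; the pairs were picked after their values were seen and are a description. Counts of 3′ ends do not grow with transcript length, but genes can be captured unequally, so a share is read across populations. Cox6a2, the form of subunit VIa known from heart and skeletal muscle (chr7:128205435-128206366, minus strand), had 45 counts in 11 of 36 libraries. In MPP4 it was at 157, 52.4 and 0 CPM in wild type and 143, 197 and 24.4 in Mof -/+, while all 6 HSC libraries were at 0. Of the Cox6a1 and Cox6a2 counts it held 37 of 176 in MPP4 (21.02%; exact binomial 95% interval 15.3 to 27.8), 3 of 50 in MPP2 and 3 of 54 in MPP3. The share was 0.625% in CMP (1 of 160), 0.474% in MEP (1 of 211) and 0 in HSC (0 of 55, at most 6.49%). The F test across Mof -/+ populations did not call it (limma adjusted p = 0.36). Cox6a2 overlaps Itgad on the other strand, which had 2 counts in all libraries. Limma with voom weights did call it in that test. A list of 8 genes of plasmacytoid dendritic cells, chosen after the values were seen, summed to 1673 ± 948 CPM in wild-type MPP4 and 1402 ± 351 in Mof -/+ MPP4 (SD, n = 3). The list was higher in wild-type MPP2, at 3266 ± 1601 CPM, and in wild-type MPP3, at 2045 ± 1028. Its group means were 930 and 821 CPM in Mof -/+ MPP2 and MPP3, and 601 to 863 CPM over HSC, CMP and MEP. Within MPP4 the list was highest in replicate 3 of each genotype, at 2716 CPM in wild type and 1805 in Mof -/+, where Cox6a2 was lowest. Siglech, a defining gene of those cells, was at 0 in the 4 MPP4 libraries with the most Cox6a2. Tcf4, Spib, Irf8, Bst2 and Runx2 of the list were counted in all 4 of them, while Ccr9 and Pacsin1 were not. Siglech was at 266 CPM in wild-type MPP2 replicate 3 and 274 CPM in wild-type MPP3 replicate 1, where Cox6a2 was at 177 and 137 CPM (2 counts and 1 count). It was also at 111 CPM in wild-type MPP4 replicate 3 and 114 CPM in wild-type MEP replicate 2, where Cox6a2 was at 0. The other libraries with Siglech held at most 75.5 CPM of it, with Cox6a2 at 0 in some and counted in others. The list's part in the Cox6a2 counts was not tested.

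Cox6b2, the form of subunit VIb known from testis (chr7:4751792-4753094, minus strand), had 54 counts. It was counted in all 12 CMP and MEP libraries, at 53.9, 66.0 and 13.1 CPM in wild-type CMP, 48.7, 22.4 and 16.2 in Mof -/+ CMP, 52.8, 28.6 and 68.4 in wild-type MEP and 64.8, 53.3 and 91.2 in Mof -/+ MEP. Among the 6 HSC libraries 1 held a count, at 19.3 CPM. Without the 6 shallow libraries it passed the filter, mostly through its CMP and MEP counts. The log2 difference of CMP and MEP from HSC was then 1.29, which is given as a description. Its share of the Cox6b1 and Cox6b2 counts was 28 of 119 in MEP (23.5%; 16.2 to 32.2), 16 of 116 in CMP (13.8%; 8.09 to 21.4), 5 of 38 in MPP3 (13.2%), 3 of 61 in MPP4 (4.92%), 1 of 27 in MPP2 and 1 of 31 in HSC (3.23%). The intervals of MEP and CMP overlap, and those of HSC, MPP2 and MPP3 are wide.

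Atp5g1 made up 34.5% of the counts of the 3 c subunit genes in MEP (211 of 611; 30.8 to 38.5) and 31.4% in CMP (191 of 609; 27.7 to 35.2). In HSC it was 23.3% (34 of 146; 16.7 to 31.0), in MPP4 19.3% (64 of 332; 15.2 to 23.9), in MPP3 18.0% and in MPP2 13.3%. The intervals of CMP and MEP lie above that of MPP4 and overlap that of HSC. Other pairs were one-sided everywhere: Cox8a had 895 counts with Cox8b and Cox8c at 0, Cox4i1 601 with Cox4i2 at 0, and Ndufa4 389 with Ndufa4l2 at 0. Processed pseudogenes are common in these families, and how reads matching several copies were handled is not given in the sources used here.

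**Figure D5:**
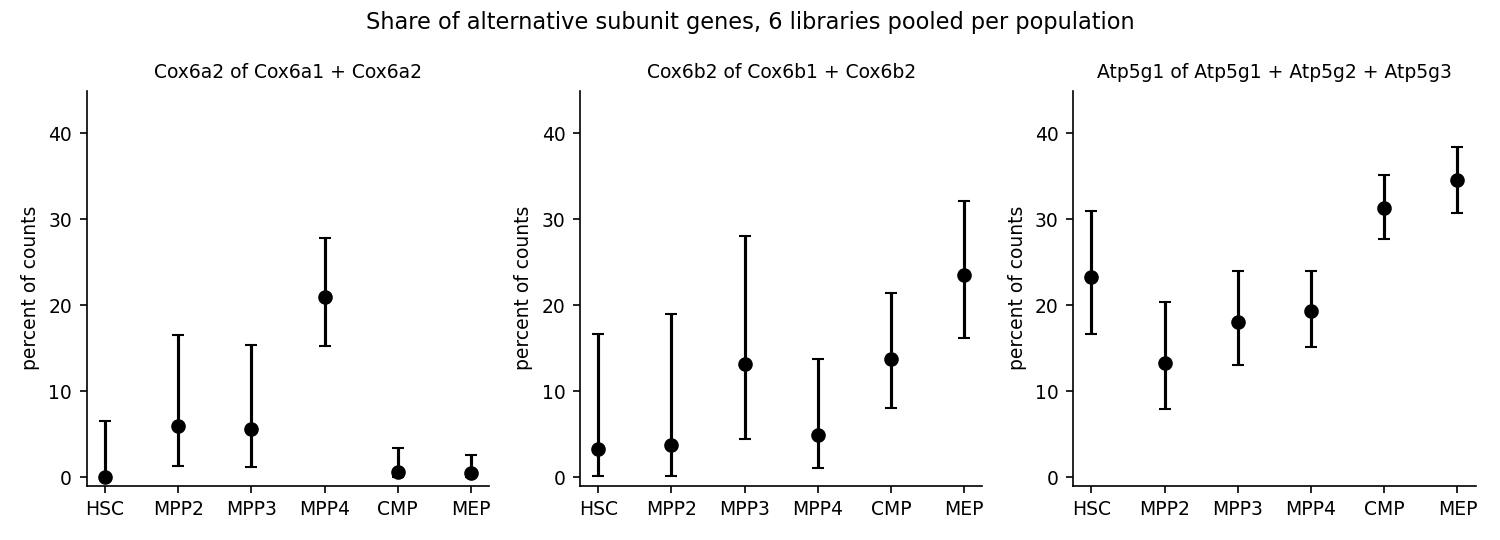
Share of 1 alternative gene in the counts of its family (y axes, percent) by population (x axes), with the 6 libraries of a population pooled and exact 95% binomial intervals that cover counting error only. Cox6a2 is highest in MPP4 at 21.02%, and Cox6b2 and Atp5g1 are highest in MEP at 23.5% and 34.5%.

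Genes around the chain were read from lists of assembly factors, carriers, regulators and Mof partners. Of 42 assembly and accessory genes 25 were tested, and none passed for CMP and MEP against HSC; 23 had a positive log2 difference, with a median of 0.61, against 74.0% and 0.35 over all genes. Without Mof -/+ HSC replicate 2 it was 20, with a median of 0.48, against 56.9% and 0.09. The 3 with the most counts were Chchd2 (log2 difference 0.32), Atpif1, the inhibitor of complex V (1.002), and Usmg5, a small complex V subunit (0.61). Of 12 carriers, porins and uncoupling genes 10 were tested and 2 passed, both higher: Etfb, which feeds electrons from fat oxidation (log2 difference 1.68, limma adjusted p = 0.040), and Sod2, the matrix superoxide dismutase (1.71, adjusted p = 0.028). Neither passed without Mof -/+ HSC replicate 2 (1.19 and 1.41, adjusted p of 0.26 and 0.16) or with DESeq2 (adjusted p of 0.079 and 0.082), and Etfb also missed the threshold with several other single libraries left out, among them each wild-type HSC library. All 10 had a positive difference, with a median of 1.10, and 8 of 10 without that library, with a median of 0.53. They include the adenine nucleotide carrier Slc25a5 (1.20), the phosphate carrier Slc25a3 (1.15) and Ucp2 (0.58).

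Of 16 regulators of respiratory genes 12 were tested and none passed, with a median log2 difference of 0.34 (0.07 without Mof -/+ HSC replicate 2); Myc was at 1.74 (limma adjusted p = 0.052), Yy1 at 0.63 and Tfam at 0.40. Of 12 genes of Mof and its complexes 10 were tested and none passed, with a median of 0.63 (0.39 without that library); the 3 with the most counts were Hcfc1 (1.08), Msl1 (0.11) and Ogt (1.31). Across the wild-type populations the F test also called Chchd10, a cristae protein (adjusted p = 0.0056, limma), at 287, 341 and 166 CPM in wild-type MPP4 and 472, 467 and 341 in Mof -/+ MPP4, against 0 to 39.6 in CMP, and Vdac2, a porin (adjusted p = 0.046).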

How the data were processed

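CEL-Seq2 libraries of 15 sorted cells were analysed (36 libraries, 12 groups of 3). The submitters' processing notes name BWA 0.6.2-r126 and the mm10 build; counter, molecular identifier handling and annotation were not given in the sources used here. Each deposited value is a signal, which the authors made by dividing counts by 1 size factor per library; all values (100%) are whole multiples of a step within 0.01, so whole counts were recovered. The design assumed counts; limma was used as the unit needs, with count tests as alternatives. Population was taken from the table names, genotype and pool from the labels. The wild-type MEP table lacks the names of 92 spike-ins, so names were assigned by position (rank correlation with wild-type CMP across genes 0.90, against 0.35 as deposited). Spike-ins were left out.

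Counts were scaled to a total of 41227, and limma 3.58.1 (R 4.3.3) was fitted to log2(scaled count + 1) with an intensity trend over all 36 libraries, for 6501 genes with a mean of at least 1, with Benjamini-Hochberg adjustment at 0.05. Calls mean an adjusted p under 0.05. The tests were run on simulated counts first. Alternatives were edgeR 4.0.16, DESeq2 1.42.0, voom, other scalings, pseudocounts, filters, and libraries left out. Pooled ratios divide the summed CPM of one population by another. Intervals cover counting error only. Named genes were those called (up to 25 per comparison), the 3 with the most counts of each complex and list, and Kat8; genes with the highest or lowest ratio and the alternative subunits were chosen after their values were seen. The members and lists were chosen with earlier results of these data known. The dendritic cell list, the 13 libraries set aside and totals without globin and neutrophil genes were chosen after seeing the data.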

Additional observations from a re-analysis of the deposited data

How the results depend on the processing

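The ratio of Mof -/+ to wild-type sums crossed 1 in HSC (0.82; 1.05 without Mof -/+ HSC replicate 2), MPP2 (1.03; 0.92 with DESeq2's factors) and MPP4 (1.16; 0.97 without the 13 libraries). The number of members called moved with the setting, and the cause was not tested except where fewer samples or genes enter. Except where stated above, the share of all genes called under these settings is not given. The counts therefore describe the settings and are not read as results about the members. Without the 6 shallow libraries, no wild-type MPP2 library remains and wild-type MPP3 keeps replicate 3 only. Counts from such settings that involve these groups therefore rest on fewer populations or on 1 library. Across wild-type populations (6 called) it was 22 with TMM scaling, 10 with a pseudocount of 0.5, 3 with a pseudocount of 4, 1 with a mean of at least 5, 2 with edgeR, 0 with DESeq2, 0 with voom, 0 when the genotype was fitted alone and 10 without 8 libraries (the 6 shallow and the 2 of most globin); leaving out single libraries gave 4 to 14 (14 without wild-type MPP3 replicate 3, 13 without Mof -/+ HSC replicate 2). Across Mof -/+ populations (0) it was 1 with edgeR, 3 with DESeq2, 1 with voom, 2 without the 6 shallow libraries and 4 without the 8; single libraries gave 0 to 1. For CMP and MEP against HSC (2) it was 13 with TMM, 0 with a mean of at least 5, 1 with edgeR, 4 without the shallow libraries, 7 with the groups alone and 7 without the 8; single libraries gave 1 to 11 (1 without wild-type HSC replicate 2 or 3, wild-type MEP replicate 3 or Mof -/+ HSC replicate 2; 11 without Mof -/+ HSC replicate 1; 5 without its replicate 3). In wild type (0) it was 1 with TMM, 2 without the shallow libraries, 1 with the groups alone and 4 without the 8. In Mof -/+ (1) it was 13 with TMM, 4 with a mean of at least 5, 0 with edgeR, DESeq2, voom, the shallow libraries out or the groups alone, and 0 to 19 with single libraries out (19 without HSC replicate 1; 0 without HSC replicate 2, CMP replicate 1, MEP replicate 1 or MEP replicate 2). For the MPP populations against HSC (0) it was 1 without the 8 over both genotypes; in wild type 1 with TMM, 1 with edgeR, 2 without the shallow libraries and 4 without the 8 (0 to 1 with single libraries out); in Mof -/+ 1 with TMM (0 to 9; 9 without Mof -/+ HSC replicate 1). Between genotypes (0) it was 2 in HSC without the 8, 2 in MPP2 with TMM (0 to 3; 3 without Mof -/+ HSC replicate 2), 7 in MPP3 with TMM, 6 with the groups alone and 1 without the 8 (0 to 8; 8 without wild-type MPP3 replicate 3), 1 in MPP4 without the shallow libraries, and 0 to 1 on average. TMM moved the median log2 difference of all genes from 0.35 to 0.51 for CMP and MEP against HSC and from 0.13 to 0.24 between genotypes.

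The mean sum was 7309 CPM with TMM and 13606 with DESeq2's factors in wild-type MPP2 and 5282 with TMM in wild-type MPP3. In wild-type CMP it was 15957 and 14041, and in Mof -/+ MPP4 16040 and 16036. With TMM it was 11773 in Mof -/+ MPP3 and 17108 in Mof -/+ CMP. Leaving out 1 library gave means of 8485 to 13090 in Mof -/+ HSC and of 11283 to 15464 in wild-type MPP4. No paired analysis was possible because the groups share no replicate number in the labels. At 8.08 to 634 CPM per count, single low genes are resolved poorly, most of all in the 6 shallow libraries.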
